A study of Homo sapiens with 18 samples.

Results

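To describe the baseline distribution of enhancer-associated chromatin marks in a KMT2A-rearranged leukemia line, the distal loci of H3K27ac and H3K4me1 were collected from vehicle-treated MOLM-13 cells profiled by Cut & Tag. The listed intervals of each mark were merged into loci wherever they overlapped. A locus was called distal when it lay over 2 kb from the transcription start site (TSS) of every protein-coding transcript. This left 15997 of 30670 H3K27ac loci and 23923 of 34932 H3K4me1 loci, that is 39920 distal loci of 95624 loci listed for the 4 marks of the series. Each locus was ranked by the mean CPM, the count scaled to a common library total, of its widest interval over the 2 libraries of its mark. Coordinates and widths of loci given below are those of the widest interval, and distances and overlaps were taken from the merged locus.

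MOLM-13 is a human acute myeloid leukemia (AML) cell line that carries the KMT2A::MLLT3 fusion, and these cells, labelled DMSO and 72 h, received only the diluent of the immunoproteasome inhibitor PR-957. A legend of the study gives a shorter time, and which is right was not settled. All libraries share this line, genotype and vehicle, and those treated with PR-957 were not used. The 2 libraries of a mark carry no label that ties them to separate cultures, so the spread between them may be technical. In Cut & Tag an antibody against a histone mark directs a transposase to the chromatin that carries it, and the tagged fragments are sequenced.

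Enhancers are stretches of DNA that bind transcription factors and raise transcription from promoters that can lie far away. Their nucleosomes usually carry H3K4me1, and H3K27ac when they are active, whereas H3K4me3 marks promoters and H3K27me3 marks chromatin repressed by Polycomb. In myeloid cells PU.1, C/EBP and RUNX factors are known to bind many of these elements, and KMT2A fusions act on a set of stem cell genes that includes the HOXA cluster and MEIS1. A nearest gene is given below as a position only, since neither library type measures which promoter an element contacts.

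The total counts over all listed intervals were 13235793 and 9984719 for H3K27ac and 30584219 and 23874111 for H3K4me1. Nested intervals count a read more than once, so these totals exceed the depth. Of the counts in widest intervals, distal loci held 27.4% and 26.97% in the H3K27ac libraries and 56.3% and 56.5% in the H3K4me1 libraries. Across distal loci the log2 CPM of the 2 libraries correlated with r = 0.893 for H3K27ac (n = 15997 loci) and 0.969 for H3K4me1 (n = 23923 loci), and both libraries were counted on the same intervals.

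The sequences at the strongest loci are shown first, to make visible what kind of DNA tops each ranking. Each is the plus strand of hg38 over 300 bases at the centre of the narrowest interval of the locus. That interval can lie at an edge of the locus or span most of it. Capitals mark matches to 6 short motifs searched on both strands: GAGGAA for the PU.1 core, TGNGGT for RUNX, TTGCNNAA for C/EBP, TGANTCA for AP-1, AGATAA for GATA and CAGCTG for the E-box. For H3K27ac the loci of ranks 1 to 3, nearest to PPARA, NANOS3 and WNT7B, were chosen.
H3K27ac, PPARA, chr22:46086517-46086816: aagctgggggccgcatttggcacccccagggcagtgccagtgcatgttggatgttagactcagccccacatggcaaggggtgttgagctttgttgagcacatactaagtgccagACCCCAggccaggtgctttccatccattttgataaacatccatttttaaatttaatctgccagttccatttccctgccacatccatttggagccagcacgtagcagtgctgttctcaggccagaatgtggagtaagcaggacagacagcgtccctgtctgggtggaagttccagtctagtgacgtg
H3K27ac, NANOS3, chr19:13850409-13850708: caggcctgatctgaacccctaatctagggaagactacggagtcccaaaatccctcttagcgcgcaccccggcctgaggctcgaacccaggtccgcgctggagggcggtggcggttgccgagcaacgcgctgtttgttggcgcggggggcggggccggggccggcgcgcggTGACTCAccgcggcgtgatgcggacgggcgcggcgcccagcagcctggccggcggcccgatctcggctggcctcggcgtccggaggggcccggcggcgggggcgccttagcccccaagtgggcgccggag
H3K27ac, WNT7B, chr22:46063052-46063351: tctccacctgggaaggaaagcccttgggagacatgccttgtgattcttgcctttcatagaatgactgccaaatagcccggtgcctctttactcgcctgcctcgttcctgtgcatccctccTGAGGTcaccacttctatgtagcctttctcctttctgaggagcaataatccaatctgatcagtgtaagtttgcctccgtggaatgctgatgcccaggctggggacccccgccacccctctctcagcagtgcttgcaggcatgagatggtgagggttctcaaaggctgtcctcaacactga
For H3K4me1 the loci of ranks 2 and 4, nearest to CD93 and RNF24, were chosen.
H3K4me1, CD93, chr20:23137556-23137855: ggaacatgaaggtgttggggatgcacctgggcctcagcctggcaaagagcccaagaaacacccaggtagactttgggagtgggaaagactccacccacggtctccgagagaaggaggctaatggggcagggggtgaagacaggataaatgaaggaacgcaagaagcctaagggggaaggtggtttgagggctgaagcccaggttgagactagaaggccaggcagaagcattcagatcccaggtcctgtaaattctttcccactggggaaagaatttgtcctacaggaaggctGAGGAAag
H3K4me1, RNF24, chr20:4064053-4064352: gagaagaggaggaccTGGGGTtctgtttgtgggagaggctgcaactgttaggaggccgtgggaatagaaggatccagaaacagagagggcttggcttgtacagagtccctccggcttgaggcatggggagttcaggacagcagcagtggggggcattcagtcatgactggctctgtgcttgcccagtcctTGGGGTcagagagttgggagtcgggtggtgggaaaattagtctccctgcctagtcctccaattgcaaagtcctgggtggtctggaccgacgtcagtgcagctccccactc
The NANOS3 window stood apart by its composition, with 74.7% G and C and 41 CpG dinucleotides. The other windows held between 52.3% and 57.7% G and C and between 3 and 5 CpG. A match is a description of the letters and does not show that a factor was bound.

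The strongest distal H3K27ac loci lay at starts of non-coding genes, many of them microRNA hosts. The top locus, chr22:46066488-46090297, reached 571 and 554 CPM in libraries 1 and 2 over 23.8 kb. Its nearest protein-coding TSS, 59.5 kb away, was that of PPARA, a nuclear receptor that controls fatty acid oxidation. Within 2 kb, however, lay a start of MIRLET7BHG, the host transcript of let-7 microRNAs. The locus of rank 3, chr22:46035426-46065765, lay next to it at 393 and 380 CPM and also held a MIRLET7BHG start, with WNT7B, a Wnt ligand, as nearest protein-coding gene at 58.0 kb. When distal loci within 10 kb of each other were stitched, both fell into 1 region of 96.2 kb and 6 loci, the highest of 11095, with 1030 and 999 CPM.

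The locus of rank 2, chr19:13833903-13855307, reached 470 and 479 CPM and contained MIR23AHG, the host of miR-23a, miR-27a and miR-24. NANOS3, an RNA-binding protein of germ cells, was the nearest protein-coding gene at 6.76 kb. Rank 12, chr13:91346643-91351906, held 120 and 107 CPM on MIR17HG, host of the miR-17-92 cluster, whose nearest protein-coding gene was the glypican GPC5 at 46.7 kb. Ranks 7 and 15, at 155 and 144 CPM and at 102 and 104 CPM, lay on chromosome 13 at starts of DLEU2, host of miR-15a and miR-16. Their nearest protein-coding gene was KCNRG, a potassium channel regulator, at 105 kb and 64.1 kb.

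The mature microRNAs of these host genes are shown because the ranking by protein-coding neighbours hides them. The sequences are from RefSeq (GRCh38.p14), with the seed, bases 2 to 8, in capitals, and members with the same seed stand next to each other.
hsa-let-7a-5p: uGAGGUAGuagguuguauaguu
hsa-let-7b-5p: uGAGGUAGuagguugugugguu
hsa-miR-23a-3p: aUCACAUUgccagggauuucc
hsa-miR-27a-3p: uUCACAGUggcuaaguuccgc
hsa-miR-24-3p: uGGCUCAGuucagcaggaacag
hsa-miR-15a-5p: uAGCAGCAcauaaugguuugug
hsa-miR-16-5p: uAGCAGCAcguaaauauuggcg
hsa-miR-17-5p: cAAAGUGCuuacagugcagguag
hsa-miR-20a-5p: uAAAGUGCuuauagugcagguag
hsa-miR-18a-5p: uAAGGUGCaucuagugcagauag
hsa-miR-19a-3p: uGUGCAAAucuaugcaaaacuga
hsa-miR-19b-3p: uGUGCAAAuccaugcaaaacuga
hsa-miR-92a-3p: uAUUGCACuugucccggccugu
The hairpins of miR-23a, miR-27a and miR-24 lay inside the rank 2 locus and those of the miR-17-92 cluster inside the rank 12 locus. The let-7a and let-7b hairpins lay 21.7 kb and 22.7 kb from the rank 1 locus. Those of miR-15a and miR-16 lay 30.4 kb and 30.5 kb from the rank 15 locus. The abundance of these microRNAs was not analysed here.

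Other long non-coding genes followed in the ranking. The locus at NEAT1, a scaffold of nuclear paraspeckles, held 270 and 273 CPM at rank 4, with FRMD8, a partner of the iRhom proteins, as nearest protein-coding gene. At rank 5, chr10:22332025-22338962 held 210 and 221 CPM, 4.08 kb from BMI1, a Polycomb subunit that sustains stem cell renewal. Among the top 20 this locus had the densest signal, at 31.1 CPM per kb.

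Ranks 8 to 11 lay nearest to ANXA2R, TENM3, GSDMC and CDKN2C. ANXA2R, an annexin receptor, had 139 and 140 CPM at its locus. The locus assigned to TENM3, a teneurin adhesion protein, held 137 and 141 CPM but lay 2082 kb away, so that the assignment says little about the gene. GSDMC, a gasdermin, was the nearest coding gene to a locus on CCDC26, a long non-coding gene known from AML, with 134 and 131 CPM. CDKN2C, a cell cycle inhibitor, had 107 and 125 CPM at its locus. Among the top 20, the loci at ANXA2R, CDKN2C and EBLN1 overlapped no H3K4me1 locus, and the other 17 did.

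The rest of the top 20, at 90.6 to 110 CPM in single libraries, lay nearest to ZC3H3, GSE1, AZIN1, DAD1, CRTC3, AHRR and EBLN1, beside the ranks named above. The DAD1 locus covered TRAC, the constant gene of the T cell receptor alpha chain. The first locus nearest to a myeloid master regulator was rank 22, chr11:47387464-47397463, 8.91 kb from SPI1, which encodes PU.1, with 88.5 and 92.8 CPM. For 9 of the 19 neighbouring pairs in the top 20 the ranges of the 2 libraries overlapped, so their order is not settled.

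**Figure D1:**
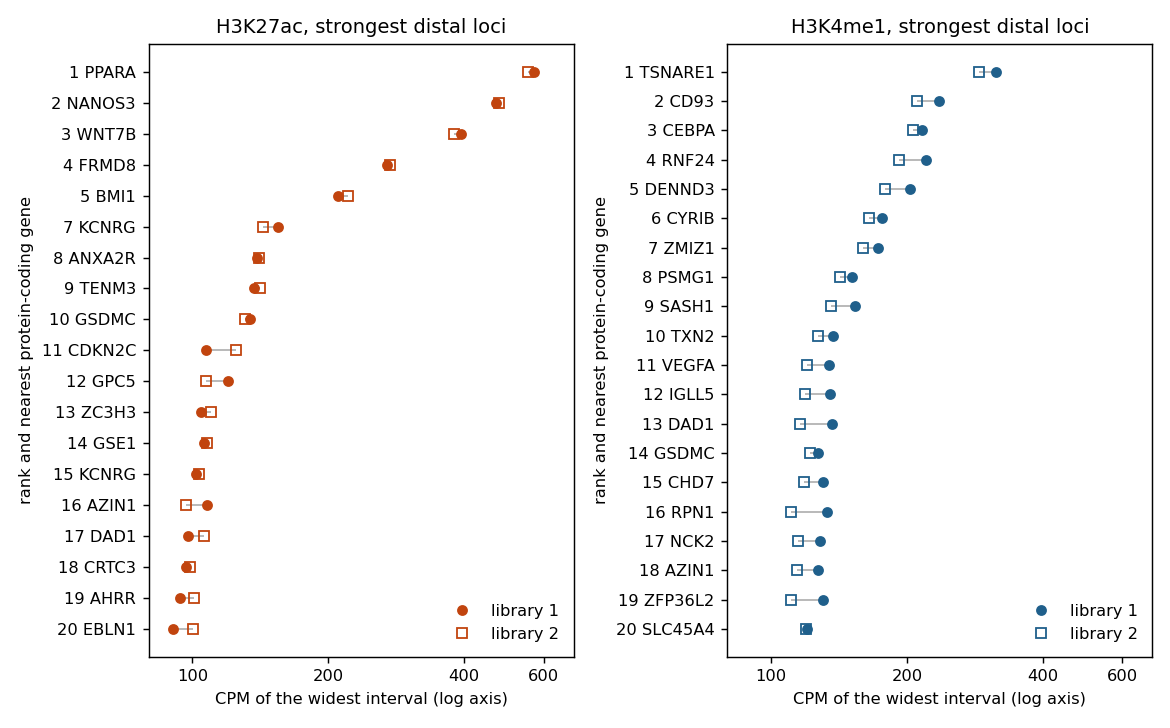
CPM of the widest interval, on a log axis, for distal loci of ranks 1 to 20 of H3K27ac (left, rank 6 not shown) and H3K4me1 (right), named by rank and nearest protein-coding gene. Filled circles are library 1, open squares library 2 and grey lines join them. H3K27ac falls from 571 CPM at rank 1 to 90.6 at rank 20 in library 1, whereas H3K4me1 falls from 314 to 120.

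The strongest H3K4me1 loci had CEBPA among their nearest genes, which no top 20 H3K27ac locus lay nearest to. The CPM is not divided by width, so the ranking favours wide intervals. Rank 1, on chromosome 8, held 314 and 289 CPM over 33.1 kb and lay 232 kb from TSNARE1, a protein with a SNARE domain. Rank 2, chr20:23135299-23166356, held 235 and 210 CPM and lay 24.9 kb from CD93, a surface receptor of myeloid and endothelial cells. Rank 3, chr19:33258487-33288260, held 216 and 206 CPM and lay 14.1 kb from CEBPA, the transcription factor that directs granulocyte and monocyte development. The distal H3K27ac loci that overlap it held 96.3 and 87.2 CPM.

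Rank 4, chr20:4049925-4077909, held 220 and 192 CPM, 34.4 kb from RNF24, a RING finger protein. DENND3, an activator of a RAB GTPase, followed with 203 and 179 CPM, and CYRIB, an inhibitor of RAC1 signalling, with 177 and 165 CPM. Ranks 7 to 20 lay between 110 and 173 CPM in single libraries, nearest to ZMIZ1, PSMG1, SASH1, TXN2, VEGFA, IGLL5, DAD1, GSDMC, CHD7, RPN1, NCK2, AZIN1, ZFP36L2 and SLC45A4. For 16 of 19 neighbouring pairs in the top 20 the ranges overlapped. ZFP36L2, an RNA-binding protein of blood progenitors, had 130 and 111 CPM at rank 19.

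The signal was concentrated in few loci. Equal numbers of loci are given for both marks and make up a larger share of the H3K27ac loci, which are fewer. The 20 strongest held 4.50% and 4.61% of the distal H3K27ac counts against 2.12% and 1.90% for H3K4me1. The 1000 strongest held 32.2% and 32.7% against 30.2% and 28.1%. The medians over all distal loci were 3.08 CPM for H3K27ac and 3.10 CPM for H3K4me1, and the median widths of their widest intervals 2327 and 2881 bases. Ranked in each library alone, 89 of the top 100 H3K27ac loci and 93 of the top 100 H3K4me1 loci were shared between the libraries. Of all distal loci 52.9% and 52.1% lay within the body of a protein-coding gene, but only 16 of the top 100 H3K27ac loci did, compared with 46 of the top 100 for H3K4me1.

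The position rule does not separate enhancers from promoters of genes that encode no protein. A start of a gene of any type lay within 2 kb of 16.4% of distal H3K27ac loci, but of 60 of the top 100. For H3K4me1 it did so for 15.0% of distal loci and 42 of the top 100. H3K4me3 overlapped 20.7% of distal H3K27ac loci and 94 of the top 100, compared with 71.3% of H3K27ac loci within 2 kb of a protein-coding TSS. It overlapped 10.6% of distal H3K4me1 loci and 93 of the top 100. The strongest loci are therefore described here by their position and marks and not as enhancers. ZC3H3, at rank 13 with 104 and 110 CPM inside the gene, was the nearest gene of the only locus in the top 20 for H3K27ac without H3K4me3.

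H3K4me1 accompanied most distal H3K27ac, but not the reverse. Of 15997 distal H3K27ac loci, 9098 (56.9%, 95% Wilson interval 56.1% to 57.6%) shared at least 1 base with an H3K4me1 locus. Of 23923 distal H3K4me1 loci, 7002 (29.3%, 28.7% to 29.8%) shared bases with H3K27ac. These intervals cover counting error only. Among loci within 2 kb of a TSS the order of the shares was turned. There 7526 of 14673 H3K27ac loci (51.3%) lay on H3K4me1 and 7377 of 11009 H3K4me1 loci (67.0%) on H3K27ac, similar counts over different totals. The marks differ in the number of listed loci and in total counts, and the part of either in these shares was not tested.

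The overlap followed the strength of the signal. Among the 1600 strongest distal H3K27ac loci 81.3% overlapped H3K4me1, and among the 1599 weakest 37.2%. For H3K4me1 the share fell from 83.8% in the strongest 2393 loci to 6.35% in the weakest 2392. H3K4me3 fell along the same ranks, from 68.0% to 4.50% for H3K27ac and from 42.2% to 1.88% for H3K4me1. Width moved with rank, since the widest interval of an H3K27ac locus had a median of 4728 bases among the strongest and 1774 among the weakest, and a wider locus has more bases to overlap. The part of width in these shares was not tested.

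**Figure D2:**
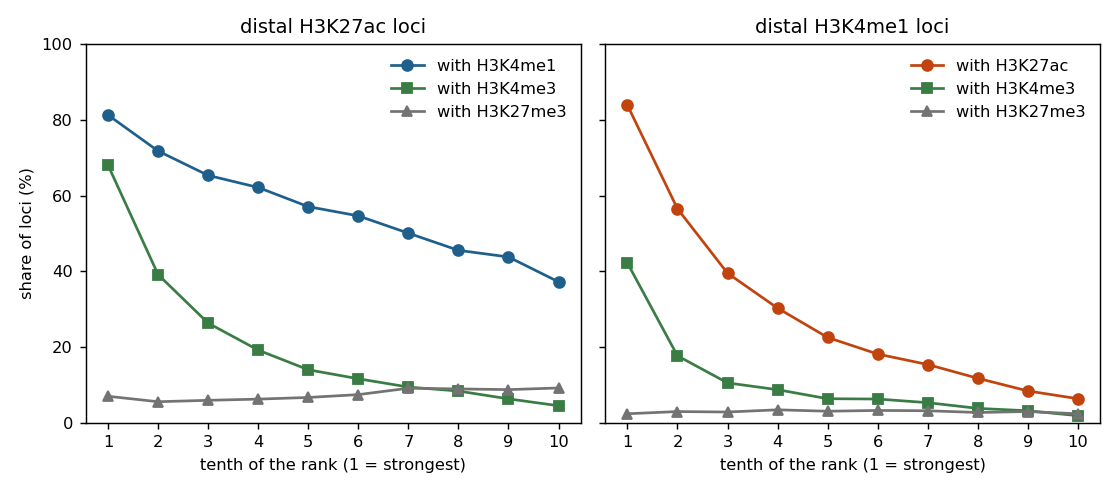
Share of distal H3K27ac loci (left) and H3K4me1 loci (right) that overlap the other mark, H3K4me3 or H3K27me3, in 10 equal bins of the rank from the strongest (1) to the weakest (10). Overlap with the other mark falls from 81.3% to 37.2% for H3K27ac and from 83.8% to 6.35% for H3K4me1, and H3K27me3 stays below 10%.

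Loci with both marks had more of each. Distal H3K27ac loci on H3K4me1 had a median of 3.70 and 3.61 CPM in the 2 libraries, compared with 2.57 and 2.60 CPM for those without. Distal H3K4me1 loci on H3K27ac had a median of 7.62 and 8.04 CPM, compared with 2.32 and 2.51 CPM. These H3K4me1 loci were also wider, at a median of 4325 bases compared with 2562, whereas H3K27ac widths were alike at 2326 and 2329. Per kb the medians were 1.77 compared with 0.99 CPM for H3K4me1 and 1.63 compared with 1.14 CPM for H3K27ac. Where loci overlapped, H3K4me1 covered 89.3% of the H3K27ac bases and H3K27ac 50.5% of the H3K4me1 bases. The loci without the other mark were mostly far from it, at a median of 18541 bases for H3K27ac and 17531 bases for H3K4me1.

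By all marks together, 6337 distal H3K27ac loci (39.6%) carried H3K4me1 without H3K4me3, at a median of 3.10 and 3.00 CPM. A further 2761 (17.3%) carried both methylation marks at 6.57 and 6.61 CPM, and 549 (3.43%) H3K4me3 alone. The remaining 6350 (39.7%) carried neither, at 2.49 and 2.50 CPM. In this last class 76.1% of loci consisted of 1 interval, 14.0% overlapped H3K27me3 and 19.0% lay on chromosome 8. Most distal H3K4me1 loci, 16518 (69.0%), carried neither H3K27ac nor H3K4me3, with a median of 2.29 and 2.47 CPM, and 2.33% of them overlapped H3K27me3. H3K4me1 loci with H3K4me3 but no H3K27ac were few, 403 in all, and 23.6% of these overlapped H3K27me3.

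A narrower set, chosen after the values above were seen, kept loci with the other mark, without H3K4me3 and over 2 kb from a TSS of any gene type. It held 5537 H3K27ac loci (34.6%) and 4097 H3K4me1 loci (17.1%), with 4 and 7 of the respective top 100. After ZC3H3, its strongest H3K27ac loci lay nearest to SPIDR and BRF2, both on chromosome 8. The locus assigned to SPIDR, a scaffold of DNA repair, lay 1030 kb away, so that the assignment says little about the gene. It overlapped 4 H3K27me3 loci, which the set did not exclude, and H3K4me1 of only 2.19 and 4.52 CPM. BRF2, a factor of RNA polymerase III, lay 4.34 kb from its locus, where H3K4me1 held 37.5 and 35.6 CPM. The locus at PLXNA1, a semaphorin receptor, followed at chr3:126994012-127016457 with 47.3 and 44.6 CPM. Its H3K4me1 was weak as well, at 2.75 and 3.69 CPM. For H3K4me1 the set was led by ASAP1, an ARF GTPase-activating protein, with 116 and 113 CPM at its locus, and CYRIA, a RAC1 regulator, with 108 and 95.2 CPM. PECAM1, an adhesion molecule of leukocytes and endothelium, had 101 and 96.1 CPM at chr17:64320638-64346549.

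To compare the marks at the same place, overlapping distal loci of both were merged into 6700 shared loci, which held 7743 H3K27ac and 6811 H3K4me1 loci. Across them the log2 CPM of the marks correlated with r = 0.47, and per kb with r = 0.24, a description over loci that share the merged bounds. The summed H3K4me1 intervals were the wider in 85.8%, at a median of 4446 bases compared with 2420. Of the top 100 loci of each mark, 25 shared loci belonged to both lists. They included the loci at CEBPA, at SPI1, which as a merged locus lay nearest to its neighbour SLC39A13, and at MIR23AHG.

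The balance of both marks was tested with the quasi-likelihood test of edgeR on the 2 libraries of each mark, relative to the typical shared locus and at an adjusted p of 0.05. Of 6700 loci, 2276 (34.0%) leaned to H3K27ac and 2409 (36.0%) to H3K4me1, and 1557 and 1427 of these by at least 2-fold. The tested groups differ in mark, antibody, library and interval list, which cannot be told apart. Loci leaning to H3K27ac had a median of 5.74 and 5.61 CPM of H3K27ac and 3.34 and 3.77 CPM of H3K4me1. Those leaning to H3K4me1 had 3.48 and 3.41 CPM of H3K27ac and 17.4 and 17.3 CPM of H3K4me1. Interval width moved with the call, since the H3K4me1 intervals had a median of 3006 bases in the loci that leaned to H3K27ac and of 6862 in those that leaned to H3K4me1. With width as an offset, 2896 (61.8%) of the called loci were called in the same direction and 136 (2.90%) in the other.

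The loci with the smallest p that leaned to H3K27ac lay at non-coding gene starts. At PPARA, on MIRLET7BHG, H3K27ac held 571 and 554 CPM and H3K4me1 5.79 and 5.65 CPM, a log2 difference of 7.59 (SE 0.12, edgeR adjusted p = 3.93e-213) that came to 5.34 with the width offset. At BMI1 the values were 210 and 221 CPM compared with 1.93 and 1.47 CPM, a log2 difference of 7.94 (SE 0.15, edgeR adjusted p = 6.90e-185) that came to 5.37 with the width offset. The loci at TENM3, GPC5 with MIR17HG, and KCNRG with DLEU1 and DLEU2 followed with log2 differences of 7.68, 6.89 and 6.88, or 5.07, 5.10 and 5.61 with the offset. In each of these 5 loci all H3K27ac values lay far above all H3K4me1 values, and each overlapped H3K4me3. They held ranks 1, 5, 9, 12 and 15 for H3K27ac, and the ranking used the same H3K27ac values as the test. Their p-values are therefore no separate evidence for the ranking, and they measure only the spread between libraries, which may be technical.

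The loci with the smallest p in the other direction were broad H3K4me1 stretches with little H3K27ac. ID2, a dominant-negative helix-loop-helix factor, was the nearest gene, at 362 kb, to a locus with 67.9 and 65.8 CPM of H3K4me1 and 3.40 and 1.60 CPM of H3K27ac (log2 difference -3.70, SE 0.19, edgeR adjusted p = 8.61e-60). At ASAP1 the values were 116 and 113 CPM of H3K4me1 and 8.76 and 7.71 CPM of H3K27ac, a log2 difference of -2.81. At SIGLEC6, a sialic acid receptor, they were 66.8 and 58.4 CPM and 2.87 and 3.00 CPM, a log2 difference of -3.44. Loci nearest to LRCH1 and ARHGAP26 had log2 differences of -4.04 and -3.30, which shrank to -0.74 and -0.59 with the width offset. With it the values at ID2, ASAP1 and SIGLEC6 were -1.41, -1.61 and -2.20. The loci at ID2, ASAP1, SIGLEC6, LRCH1 and ARHGAP26 held ranks 131, 25, 149, 364 and 196 for H3K4me1, again from values that the test used.

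H3K4me3 went with the direction of the lean. It overlapped 38.5% of the loci that leaned to H3K27ac, 28.9% of those that leaned to H3K4me1 and 23.2% of the rest. Of the 2040 shared loci with H3K4me3, 43.0% leaned to H3K27ac and 34.1% to H3K4me1. Of the 4660 without it, 30.0% leaned to H3K27ac and 36.8% to H3K4me1. Among shared loci that held a top 100 H3K27ac locus, 69 of 77 leaned to H3K27ac, but the ranking used the same H3K27ac values, so that nothing is read from this count.

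**Figure D3:**
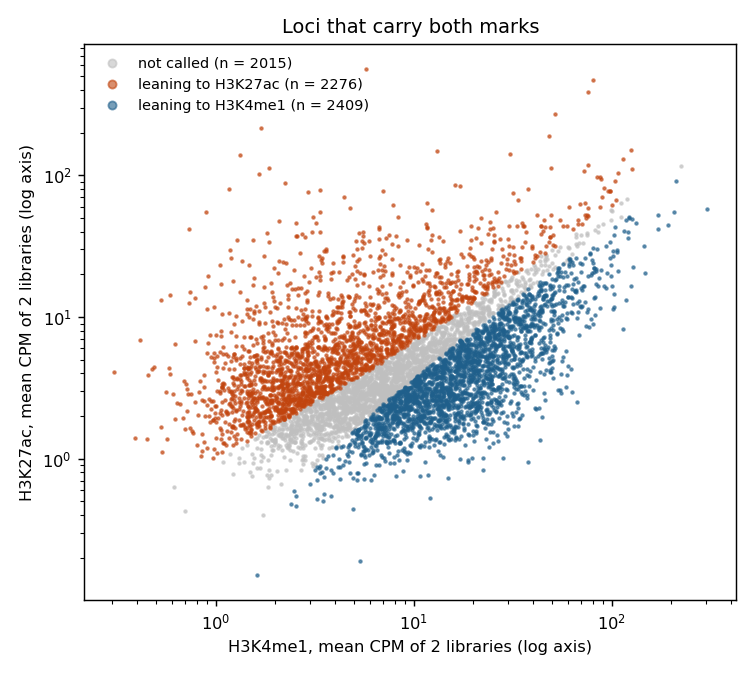
Mean CPM of H3K27ac (vertical) and H3K4me1 (horizontal) over 2 libraries each, on log axes, for the 6700 shared loci. Loci called by edgeR are coloured by direction, 2276 leaning to H3K27ac and 2409 to H3K4me1, and the 2015 not called are grey.

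Seen by gene, 6118 of 20020 protein-coding genes (30.6%) were nearest to at least 1 distal H3K27ac locus, 7903 (39.5%) to a distal H3K4me1 locus and 4721 (23.6%) to both. Summed over its loci, PPARA led for H3K27ac with 637 and 619 CPM from 5 loci. TSNARE1 followed with 619 and 595 CPM from 44 loci, and TRAPPC9, a subunit of a vesicle tethering complex, had 475 and 463 CPM from 57 loci. MYC, the proliferation-driving transcription factor, had 453 and 445 CPM from 42 loci. Here the sum came from many moderate loci, since the strongest had 42.6 and 44.8 CPM. NANOS3, WNT7B, SPIDR, GSDMC, RREB1 and FRMD8 made up the rest of the top 10, with means of 293 to 477 CPM.

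For H3K4me1 the order was led by JARID2, a cofactor of the Polycomb complex PRC2, with 692 and 659 CPM from 51 loci. MYC had 453 and 483 CPM from 28 loci and ZFP36L2 463 and 434 CPM from 17 loci. TSNARE1, GSDMC, MTSS1, VEGFA, TRIB1, ID2 and DENND3 followed or stood between, with means of 344 to 475 CPM. TRIB1 is a pseudokinase known for the degradation of C/EBP alpha. TSNARE1, MYC and GSDMC stood in the top 10 of both marks.

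The gene lists were read against these background shares. Of 24 genes listed as myeloid transcription factors, 20 were nearest to a distal H3K27ac locus and 21 to a distal H3K4me1 locus. The list also holds ZFP36L2, an RNA-binding protein, which is counted in these numbers. For H3K27ac, CEBPD, ERG, NFE2 and CBFB had none. For H3K4me1, SPI1, CEBPD and NFE2 had none, and the H3K4me1 signal beside SPI1 fell to a neighbouring gene. After SPI1, the strongest H3K27ac loci of the list were those of CEBPA (59.7 and 53.8 CPM), IRF8, a monocyte factor (45.0 and 42.7 CPM), and MYC. For H3K4me1 CEBPA and ZFP36L2 were followed by MYC (105 and 106 CPM) and the ETS factor FLI1 (101 and 95.2 CPM). RUNX1, a core factor of blood stem cells, had 16 H3K27ac and 32 H3K4me1 loci. In the narrower set, 15 of the 24 genes kept an H3K27ac locus (62.5%, compared with 15.9% of all genes). An H3K4me1 locus was kept by 13 (54.2%, compared with 13.5%).

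Of the 21 KMT2A target genes, taken from the study's text and so not independent of these cells, 8 (38.1%) had a distal H3K27ac and 7 (33.3%) a distal H3K4me1 locus, near the 30.6% and 39.5% of all genes. The 11 HOXA genes, VENTX and CDK9 had neither, and AXL had only H3K27ac. Loci within 2 kb of any protein-coding TSS were left out, so in the HOXA cluster this does not show that the marks were absent. With 11 of the 21 genes there, the share of the list depends on this rule. In the narrower set, 7 of the 21 (33.3%) kept an H3K27ac locus, compared with 15.9% of all genes. An H3K4me1 locus was kept by 6 (28.6%, compared with 13.5%). PBX3, a cofactor of HOX proteins, led for H3K27ac with 38.4 and 38.1 CPM, followed by MEIS1, its partner, with 19.8 and 21.6 CPM. CDK6, a cell cycle kinase, had 11.5 and 12.8 CPM at its strongest H3K27ac locus. For H3K4me1 FLT3, the receptor kinase of early progenitors, led with 45.8 and 41.8 CPM, followed by RUNX2 with 34.5 and 33.8 CPM and CDK6 with 21.8 and 19.9 CPM.

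Of 21 genes of cytokine and FLT3 signalling, 12 had an H3K27ac and 15 an H3K4me1 locus. BCL2, an inhibitor of apoptosis, held 44.6 and 42.2 CPM of H3K27ac and, at another locus, 61.2 and 56.6 CPM of H3K4me1. SOCS2, a feedback inhibitor of cytokine receptors, held 37.4 and 31.0 CPM of H3K27ac. CCND3, a D-type cyclin, reached 29.9 and 31.4 CPM of H3K4me1. SOCS1, CISH, PIM2, MCL1, STAT5A and PTPN6 had no distal locus of either mark. In the narrower set 8 of the 21 (38.1%) kept an H3K27ac and 6 (28.6%) an H3K4me1 locus, compared with 15.9% and 13.5% of all genes. Of 14 genes of the KMT2A complex and its elongation partners, 5 and 6 had a locus, close to the background over all distal loci. In the narrower set 5 of the 14 (35.7%) and 3 (21.4%) kept one, above the shares of all genes. Neither mark had a distal locus at KMT2A, MEN1 or DOT1L, while ELL, an elongation factor, held 21.2 and 22.6 CPM of H3K27ac and AFF1, another, 76.0 and 63.8 CPM of H3K4me1.

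Of 15 genes for granule and secreted proteins, 7 and 8 had a locus. In the narrower set 5 (33.3%) kept an H3K27ac locus and 1 (6.67%) an H3K4me1 locus, compared with 15.9% and 13.5% of all genes. SRGN, the core protein of granule proteoglycans, held 72.5 and 78.4 CPM of H3K27ac, and LYZ, lysozyme, 34.5 and 26.3 CPM of H3K4me1. ELANE, PRTN3, AZU1, CTSG, S100A9 and CFD had no distal locus of either mark.

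The label of a myeloid line was checked against lists of cell type markers. Of 23 myeloid and AML markers, 15 had an H3K27ac and 18 an H3K4me1 locus, CD34 among them with 37.7 and 37.8 CPM of H3K4me1. CSF2RA, IL3RA and CLEC12A had neither. Of 11 erythroid and megakaryocyte markers 1 had a locus of each mark, GP9 for H3K27ac, and GATA1, KLF1 and the globins had none. B lymphoid markers had 3 of 9 for each mark, and CD79A and MS4A1 had none of either. For T and NK markers the counts were 4 and 7 of 11, the H3K4me1 share being above the background, with 43.0 and 40.7 CPM at CD3E, a T cell receptor subunit without a distal H3K27ac locus. CD3D, CD3G and CD247, which also belong to the T cell receptor complex, had no distal locus of either mark. Since loci within 2 kb of a protein-coding TSS were left out, a marker without a distal locus may still carry the marks there. Genes used outside blood had 4 and 6 of 15.

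**Figure D4:**
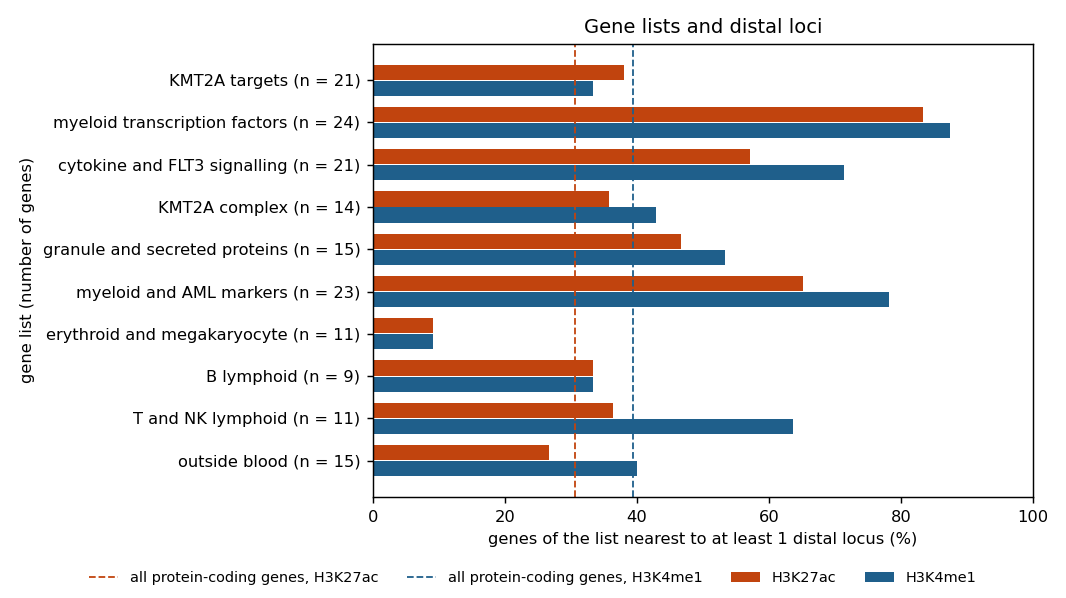
Percent of the genes in each list that are nearest to at least 1 distal locus of H3K27ac (orange) or H3K4me1 (blue), with the number of genes in the list. Dashed lines give the share over all protein-coding genes, 30.6% and 39.5%, and the list of myeloid transcription factors lies farthest above them.

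At the shared loci of the myeloid transcription factor list, with ZFP36L2 in it, 24 leaned to H3K27ac, 45 to H3K4me1 and 28 to neither. Their median log2 difference was -0.29, compared with -0.01 over all shared loci, of which 34.0% leaned to H3K27ac and 36.0% to H3K4me1. Loci nearest to MYC were among those that leaned to H3K27ac, with 35.7 and 34.1 CPM against 1.08 and 1.47 CPM of H3K4me1 at the one with the smallest p (log2 difference 5.77, or 3.22 with the width offset). The strongest H3K4me1 locus nearest to MYC leaned the other way, with 105 and 106 CPM of H3K4me1 against 28.9 and 30.4 CPM of H3K27ac (-0.86). A locus at PBX3 leaned to H3K27ac, with 39.4 and 39.1 CPM of H3K27ac against 5.95 and 4.65 CPM of H3K4me1 (3.85, or 3.08 with the offset). Loci at BCL2, IKZF1, CEBPB and FLT3 leaned to H3K4me1, with log2 differences of -3.19, -2.89, -2.25 and -2.08 at those with the smallest p, or -0.49, -2.03, -1.23 and -0.74 with the width offset. MEIS1 had loci of both kinds, 1 at 65.5 kb with 19.8 and 21.6 CPM of H3K27ac (3.38, or 2.04 with the offset) and 1 at 12.7 kb with 14.3 and 14.0 CPM of H3K4me1 (-2.53, or -0.73 with the offset). These were chosen from their lists for the smallest p, after the values were seen.

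Chromosome 8 was the densest in distal H3K27ac loci. It had 2229 distal H3K27ac loci (13.9% of all, 15.4 per Mb, the highest of all chromosomes) and 4.77% of the H3K27ac loci within 2 kb of a TSS. For H3K4me1 it had 1694 (7.08%, 11.7 per Mb), second to chromosome 20. It carried 23 of the top 100 H3K27ac and 25 of the top 100 H3K4me1 loci. For H3K27ac the median signal per locus was only slightly above the rest, at 3.32 and 3.31 CPM compared with 3.10 and 3.10 CPM. For H3K4me1 it was 3.34 and 3.85 CPM compared with 2.94 and 3.18 CPM. Ranked by CPM per kb, chromosome 8 carried 10 of the top 100 H3K27ac and 44 of the top 100 H3K4me1 loci. Distal H3K27ac loci on chromosome 8 overlapped H3K4me1 in 45.3% and H3K4me3 in 10.8%, compared with 58.7% and 22.3% elsewhere. Distal H3K4me1 loci there overlapped H3K27ac in 48.3%, compared with 27.8% elsewhere. Of shared loci on chromosome 8, 43.0% leaned to H3K27ac, compared with 32.8% elsewhere, while with the width offset the medians were -0.03 and 0.01 on the log2 scale. The genes TSNARE1, TRAPPC9, MYC, SPIDR and GSDMC named above lie on this chromosome. The cause was not tested.

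In sequence, distal loci differed from those within 2 kb of a TSS in base composition and in motif shares. The central 300 bases of the narrowest interval held a median of 52.3% G and C in distal H3K27ac loci. Those within 2 kb of a TSS had 62.3%, and for H3K4me1 the medians were 45.3% and 50.0%. Distal H3K27ac loci on H3K4me1 had 49.7%, compared with 55.3% for those without. The 100 strongest H3K27ac loci had 55.8%. Motif shares have to be read with this, since AT-rich letters are rarer in GC-rich windows. The part of composition in the motif shares was not tested.

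The C/EBP motif was present in 13.3% of all distal H3K27ac windows and 7.56% of those near a TSS, the AP-1 motif in 11.9% and 5.81% and the GATA motif in 10.8% and 5.87%. The PU.1 core was found in 29.3% and 26.5%, RUNX in 57.0% and 50.4% and the E-box in 22.1% and 19.7%. Distal H3K27ac windows on H3K4me1 held the C/EBP motif in 16.6% and the AP-1 motif in 15.0%, compared with 9.02% and 7.93% without H3K4me1. In distal H3K4me1 windows the C/EBP motif was present in 18.0% and AP-1 in 14.1%, compared with 13.5% and 10.0% near a TSS. Among the top 100, RUNX was present in 51 H3K27ac and 65 H3K4me1 windows, and the PU.1 core in 19 and 29.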

How the data were processed

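Cut & Tag libraries of DMSO-treated MOLM-13 cells were used, 2 each for H3K27ac and H3K4me1, with those of H3K4me3 and H3K27me3 for overlaps. The authors deposited, per mark, a table of raw read counts per interval with hg38 coordinates. The submitters' processing notes name Trimmomatic 0.39, Bowtie2 2.2.5, SAMtools 1.7, Picard 2.27.1, SEACR 1.3 and deepTools 3.5.1. For the counting tool and duplicate handling nothing is given in the sources used here. The interval lists also served the PR-957 libraries, so some intervals may have been called there, and the IgG control was not analysed here. Whether coordinates start at 0 or 1 is not stated.

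Overlapping intervals were merged with Python 3.11.15 and pandas 2.3.3 and annotated with GENCODE 44. CPM were counts over the sum of all listed intervals. All 24 chromosomes were found in hg38 and 0 loci passed a chromosome end. Shared loci with a count of at least 10 were tested with edgeR 4.0.16 (R 4.3.3, TMM, quasi-likelihood, two-sided, Benjamini-Hochberg), and the SE was taken from the log2 difference and its F value. DESeq2 1.42.0 was an alternative. On simulated counts with 200 loci changed 2-fold among 6699, 181 were recovered and 7 others called. The simulation used a common dispersion and few changed loci, whereas 4685 loci were called in the data. Its rates need not hold there.

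Named are the 20 strongest loci and 10 genes of highest summed CPM per mark, up to 4 genes per list, list members without a locus, and the 5 loci with the smallest p per direction. Other loci and genes, among them those of the narrower set, of shared top 100 loci, of the balance at list genes and of rank 22, were chosen after their values were seen. The members, lists and tests were chosen with earlier results of these data known. A few loci and genes that meet these rules are not reported here.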

Additional observations from a re-analysis of the deposited data

How the results depend on the processing

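The numbers of distal loci and of their nearest genes stayed within 1.5 times under every alternative run for them. The share of distal H3K27ac loci on H3K4me1 became 54.7% with the outermost 5′ end of each gene as its only TSS, 55.3% with 50% of the shorter locus covered, 59.1% with a gap of 1 kb allowed and 58.7% without chromosome 8. In the order of TSS at 1 kb, 5′ ends, genes of any type, coverage, gap and no chromosome 8, the share of H3K4me1 loci on H3K27ac became 29.9%, 32.9%, 26.8%, 28.4%, 31.6% and 27.8%. H3K4me3 on H3K27ac rose to 22.2% with the gap and 22.3% without chromosome 8, and H3K27me3 became 6.48%, 8.42% and 6.98% with coverage, gap and no chromosome 8. On H3K4me1, H3K4me3 became 10.05% with coverage and 12.2% with the gap, and H3K27me3 2.42% and 3.44%.

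The top 100 depended most on the rule. For H3K27ac 48 were kept with 5′ ends, 40 with TSS of any type, 51 by CPM per kb and 4 in the narrower set. For H3K4me1 56, 58, 37 and 7 were kept, and 65 after stitching. Leaving out each library kept 93 to 96 and 96 to 97. In the balance test it gave 3896 to 4330 called loci, 1928 to 2082 to H3K27ac and 1968 to 2248 to H3K4me1. DESeq2 called 3898, and the width offset 3657. The same-numbered libraries did not deviate together (correlation 0.0014), and with the replicate block 4494 loci were called. The chromosome 8 and narrower-set alternatives were added after seeing the data. The 2 libraries per mark limit the precision, and weak loci rest on few counts.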
